A study of Mus musculus with 19 samples.

Results

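The HP1 proteins and the machinery that methylates histone H3 at lysine 9 (H3K9) were followed as a set of 10 genes, chosen by symbol because their products read, write or anchor this mark. All 10 were found by Ensembl ID among the 53801 gene IDs counted, and all 10 passed the filter on low counts in both cohorts. The set holds 3 readers (Cbx5, Cbx1 and Cbx3), 5 methyltransferases (Suv39h1, Suv39h2, Setdb1, Ehmt1 and Ehmt2), the corepressor Trim28 and the chromatin remodeller Atrx. Their choice used gene function and no measured value, although it was made with earlier results of these data known.

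RNA was sequenced from homogenates of hippocampus and cortex of 19 C57BL/6 mice aged 3 months. On postnatal day 0 each C57BL/6J pup had received an adeno-associated virus of serotype AAV1 in the cerebral ventricles. The vector was AAV-GFP, AAV-GFP-(PR)50, which encodes GFP with 50 proline-arginine units, or AAV-GFP-(GR)100, which encodes GFP with 100 glycine-arginine units. Both repeat proteins, written poly(PR) and poly(GR) here, are translation products of the expanded C9orf72 repeat found in patients with frontotemporal dementia or amyotrophic lateral sclerosis. In the poly(PR) cohort 4 female and 3 male mice received poly(PR), and the harvest-matched GFP controls were 3 females and 1 male. In the poly(GR) cohort 3 females and 1 male received poly(GR), with 2 females and 2 males as harvest-matched GFP controls. All groups therefore carried a GFP vector, and none was left uninjected. The promoter of the vectors and the cell types that took them up are not stated by the labels. In a homogenate, fewer cells of a type and less RNA per cell cannot be told apart.

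HP1 proteins carry a chromodomain that binds methylated H3K9 and a chromoshadow domain through which they dimerize and recruit partners, which keeps pericentric satellite DNA and other repeats compact. Suv39h1 and Suv39h2 trimethylate H3K9 at pericentric heterochromatin, Setdb1 does so at retroelements to which Trim28 brings it, and Ehmt2 (G9a) with its partner Ehmt1 (GLP) mono- and dimethylates H3K9 in euchromatin. Atrx helps to deposit a replacement variant of histone H3 at silent repeats, and mutations of EHMT1 or ATRX in people cause intellectual disability. The study's title concerns poly(PR), heterochromatin and HP1α, the protein of Cbx5, so the question here is whether RNA of these genes differed between treated mice and their controls.

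The promoters of the 3 HP1 genes and of Ehmt2 are printed because RNA of Cbx5, Cbx1 and Cbx3 varied together from library to library while Ehmt2 varied the opposite way, as described further on. They are RefSeq windows on GRCm38.p6, from 250 bases before to 50 bases after a transcript start, 5′ to 3′ on the strand of the gene. Capitals mark matches, on either strand, to GGGCGG (the GC box), ATGGCGG (a YY1 core) and CACGTG (an E-box), which can overlap.
Cbx5, chr15:103239803-103240102 (minus strand): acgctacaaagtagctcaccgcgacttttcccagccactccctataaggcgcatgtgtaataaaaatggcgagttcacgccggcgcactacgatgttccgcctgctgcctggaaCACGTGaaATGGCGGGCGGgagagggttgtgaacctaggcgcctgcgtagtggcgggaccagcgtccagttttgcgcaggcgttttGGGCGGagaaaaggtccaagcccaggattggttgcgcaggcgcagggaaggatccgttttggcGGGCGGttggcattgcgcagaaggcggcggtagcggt
Cbx1, chr11:96788885-96789184 (plus strand): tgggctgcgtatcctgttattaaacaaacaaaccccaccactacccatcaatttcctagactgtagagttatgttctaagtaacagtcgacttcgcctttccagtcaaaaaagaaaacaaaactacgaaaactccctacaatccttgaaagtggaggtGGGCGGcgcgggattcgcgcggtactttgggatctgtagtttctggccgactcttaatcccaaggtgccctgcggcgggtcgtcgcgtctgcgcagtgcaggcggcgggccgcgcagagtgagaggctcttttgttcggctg
Cbx3, chr6:51470366-51470665 (plus strand): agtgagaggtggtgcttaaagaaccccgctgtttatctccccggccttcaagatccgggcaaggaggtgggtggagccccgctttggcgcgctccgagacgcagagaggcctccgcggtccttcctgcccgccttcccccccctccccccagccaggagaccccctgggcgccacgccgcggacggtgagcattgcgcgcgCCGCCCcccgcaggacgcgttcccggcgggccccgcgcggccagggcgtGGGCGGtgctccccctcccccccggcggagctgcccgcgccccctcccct
Ehmt2, chr17:34898224-34898523 (plus strand): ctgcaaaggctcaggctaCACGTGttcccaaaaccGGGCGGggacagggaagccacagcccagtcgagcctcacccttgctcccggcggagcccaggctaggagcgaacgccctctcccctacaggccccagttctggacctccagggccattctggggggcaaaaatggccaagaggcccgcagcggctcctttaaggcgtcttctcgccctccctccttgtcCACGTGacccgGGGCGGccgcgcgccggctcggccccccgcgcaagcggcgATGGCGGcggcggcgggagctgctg

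The 4 windows do not share a layout. The Cbx5 window held 3 GC boxes, 1 YY1 core that overlaps a GC box, and 1 E-box, the Cbx1 window a single GC box, the Cbx3 window 2 GC boxes, and the Ehmt2 window 2 GC boxes, 2 E-boxes and 1 YY1 core. Among all 32851 RefSeq mouse windows of the same length, 35.7% held a GC box, 4.05% the YY1 core and 7.15% the E-box, so only the YY1 core and the E-box are uncommon. Cores for ETS factors (CCGGAAG) and CREB (TGACGTCA) and the NRF1 motif were searched too and had no match in these 4 windows. The GC content was 60.3% for Cbx5, 52.7% for Cbx1, 75.3% for Cbx3 and 70.3% for Ehmt2, against a median of 52.7% over all windows. A match is a run of letters and not evidence of binding.

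Each library held between 26934239 and 47648711 reads on genes, and the least covered of the 10 genes, Suv39h2, had at least 90 reads in every library. Libraries of the poly(PR) cohort spread widely in the share of gene reads on mitochondrially encoded genes, from 2.96% to 5.07%, while those of the poly(GR) cohort lay between 3.45% and 3.93%. Markers of neurons, astrocytes, microglia, oligodendrocytes, endothelium, choroid plexus and striatum were all detected, with no marker at 0 in any group. Levels are given as CPM, the reads of a gene scaled to the size of its library. The summed neuron markers were at 8710 to 9953 CPM in poly(PR) libraries and 9996 to 10800 CPM in their controls. Striatal markers summed to 1221 to 1874 CPM against 937.5 to 1088 CPM for poly(PR) and 1205 to 1358 CPM against 927.7 to 1095 CPM for poly(GR), so the treated groups lay above their controls in both. Choroid plexus markers summed to 14.0 to 124.5 CPM in poly(GR) libraries and 126.2 to 360.1 CPM in their controls. In the fits 1 of 6 astrocyte markers, higher, was called in poly(PR) mice, and 4 of 7 striatal markers, higher, and 3 of 6 choroid plexus markers, lower, in poly(GR) mice. The part of these differences in the values below was not tested.

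The levels of the 10 genes spanned more than an order of magnitude per length. In reads per kilobase of exon, scaled to library size as CPM is (RPKM), the GFP controls of the poly(PR) cohort had Ehmt2 at 43.8 ± 6.54, Trim28 at 31.4 ± 1.88 and Cbx5 at 25.7 ± 4.75 (SD, n = 4). Atrx (9.50 ± 2.78), Cbx1 (9.05 ± 0.662) and Cbx3 (8.43 ± 1.12) followed, and the library ranges of neighbours among these 3 overlapped. Setdb1 stood at 7.21 ± 0.299 RPKM. With the union of exons as length, Suv39h1 (4.79 ± 0.178) and Ehmt1 (4.77 ± 0.409) could not be ordered, since their ranges overlapped. Suv39h2, at 0.943 ± 0.158 RPKM, was the lowest of the 10 in all 4 groups, and Ehmt2 was the highest. Of the pair that methylates pericentric H3K9, Suv39h1 was thus the more abundant RNA, and Cbx5 was the most abundant of the 3 HP1 genes. By union length, the order of Trim28 and Cbx5 was not the same in each group. In the poly(GR) cohort's controls Cbx5 was at 31.4 ± 1.47 and Trim28 at 29.8 ± 2.12 RPKM, with overlapping ranges. This order depends on the length used: the unions have 4158 bases for Trim28 and 9006 for Cbx5, the longest transcripts 3245 and 8803. By longest transcript, Trim28 would lie above Cbx5 in each group.

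**Figure D1:**
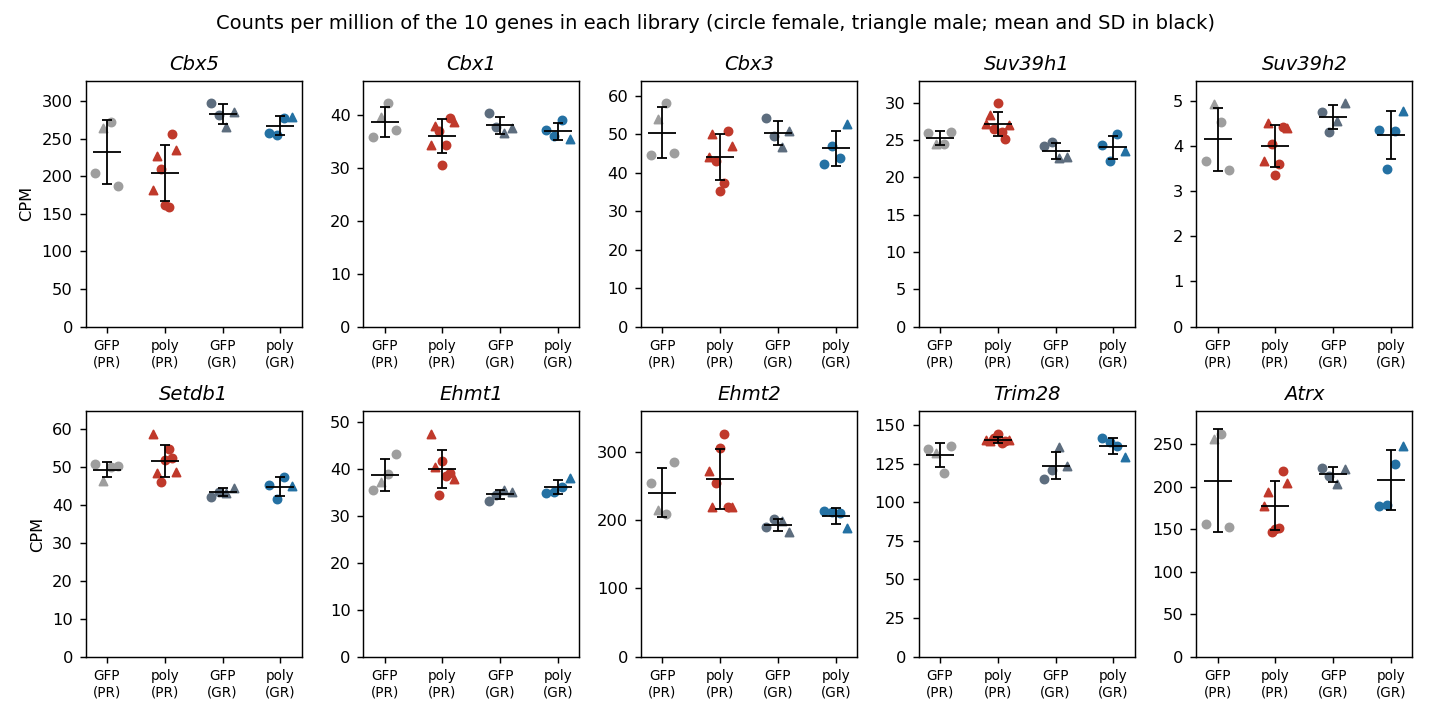
CPM (vertical axis, from 0) of each of the 10 genes in every library of the 4 groups (horizontal axis), with circles for female and triangles for male mice and the group mean ± SD in black. Cbx5, Ehmt2 and Atrx spread widely in the poly(PR) cohort, and Trim28 of the 7 poly(PR) libraries sits between 138.6 and 144.4 CPM, above all 4 of its controls.

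None of the 3 HP1 genes passed the test in either cohort. Cbx5, which encodes HP1α, was at 203.9, 264.1, 272.3 and 186.9 CPM in the 4 GFP controls of the poly(PR) cohort, and from 159.6 to 256.0 CPM with a median of 210.1 CPM in the 7 poly(PR) libraries. Each group held low and high libraries, and the groups overlapped. The fitted log2 fold change was -0.21 (SE 0.15, 95% interval -0.53 to 0.11, edgeR quasi-likelihood test, adjusted p = 0.457). The poly(GR) cohort had Cbx5 at 297.0, 281.8, 265.1 and 285.7 CPM in GFP mice and at 257.0, 255.5, 277.9 and 278.7 CPM in poly(GR) libraries. These ranges overlapped as well, with a log2 fold change of -0.08 (SE 0.06, interval -0.21 to 0.05, edgeR, adjusted p = 0.636).

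Cbx3, which encodes HP1γ, a form also found on transcribed genes, had the smallest p of the readers. Its controls in the poly(PR) cohort were at 44.7, 54.1, 58.1 and 45.0 CPM, and poly(PR) libraries ranged from 35.2 to 50.9 CPM with a median of 44.2 CPM. Of the poly(PR) libraries 4 lay below the lowest control and 3 lay among the controls. The log2 fold change was -0.23 (SE 0.11, interval -0.47 to 0.01, edgeR, adjusted p = 0.344). For poly(GR) the controls were at 54.3, 49.5, 46.8 and 51.0 CPM and the treated libraries at 42.4, 46.9, 43.8 and 52.7 CPM, a log2 fold change of -0.10 (SE 0.07, edgeR, adjusted p = 0.629). The highest treated value came from the male poly(GR) mouse. In all, 8 processed pseudogenes are annotated as copies of Cbx3 (Cbx3-ps1 to Cbx3-ps8), and no library had more than 7 reads on any of them, against at least 972 on Cbx3 itself.

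Cbx1, which encodes HP1β, varied least of the readers. It had 38.7 ± 2.83 CPM (SD, n = 4) in the controls and 36.0 ± 3.13 CPM (n = 7) in poly(PR) libraries, a log2 fold change of -0.11 (SE 0.08, edgeR, adjusted p = 0.466). For poly(GR) it had 38.0 ± 1.60 CPM and 36.9 ± 1.59 CPM (n = 4 each), a log2 fold change of -0.06 (SE 0.05, edgeR, adjusted p = 0.711). All 3 readers thus had fitted values below 0 in both cohorts, each larger in size than its SE and with a 95% interval that spanned 0. The 3 are not separate observations, because they varied together between libraries.

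**Figure D2:**
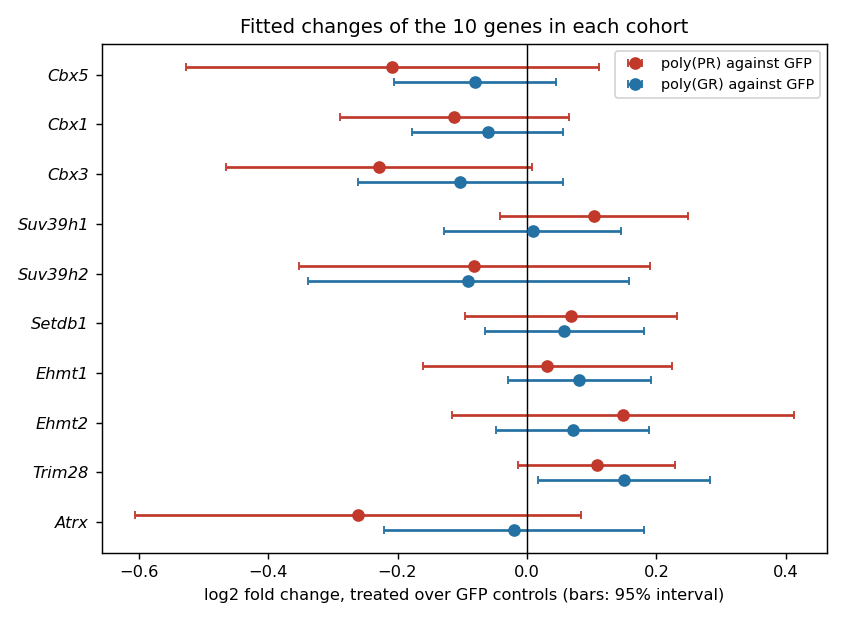
Fitted log2 fold change of each gene (rows), treated over GFP controls, in the poly(PR) cohort (red, 7 against 4 libraries) and the poly(GR) cohort (blue, 4 against 4), with bars for the 95% interval of the edgeR fit. Every bar except that of Trim28 in the poly(GR) cohort, from 0.02 to 0.28, spans 0.

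Among the methyltransferases of the set none passed either. Ehmt2, which encodes G9a, was at 253.6, 214.4, 208.3 and 285.0 CPM in the poly(PR) cohort's controls, and from 218.8 to 326.6 CPM with a median of 254.9 CPM in poly(PR) libraries. The 2 libraries with the highest values were poly(PR) libraries, and these were also the 2 lowest for Cbx5 and Cbx3. The log2 fold change of 0.15 (SE 0.12, interval -0.12 to 0.41, edgeR, adjusted p = 0.509) was within the spread. The poly(GR) cohort had Ehmt2 at 189.3, 201.7, 198.8 and 182.5 CPM without and 213.2, 212.5, 210.5 and 189.1 CPM with the repeat protein. The 3 female poly(GR) libraries lay above all 4 controls and the male one did not, and the log2 fold change was 0.07 (SE 0.05, edgeR, adjusted p = 0.662).

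Of the exonic bases of Suv39h1, 14.6% also lie in Gm14820 on the other strand, and since the counts keep no strand, reads of the 2 genes there cannot be told apart. Suv39h1 had 25.3 ± 0.936 CPM in controls and 27.1 ± 1.57 CPM in poly(PR) libraries (log2 fold change 0.10, SE 0.07, edgeR, adjusted p = 0.428). The values for poly(GR) were 23.6 ± 1.08 and 24.0 ± 1.51 CPM, with a log2 fold change of 0.01 (SE 0.06). Suv39h2, which shares 9.98% of its exonic bases with Dclre1c and Gm13184, had fitted values of -0.08 (SE 0.12) for poly(PR) and -0.09 (SE 0.11) for poly(GR) on the log2 scale. With 90 to 232 reads per library, its intervals were -0.35 to 0.19 and -0.34 to 0.16.

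Setdb1, the methyltransferase of retroelements, had 49.4 ± 2.05 CPM in controls and 51.6 ± 4.32 CPM in poly(PR) libraries. Its log2 fold change was 0.07 (SE 0.08, interval -0.10 to 0.23) there and 0.06 (SE 0.06, interval -0.06 to 0.18) in the poly(GR) cohort. Ehmt1, the partner of G9a, gave 0.03 (SE 0.09) and 0.08 (SE 0.05). The intervals of Ehmt1 ran from -0.16 to 0.22 for poly(PR) and from -0.03 to 0.19 for poly(GR).

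Trim28, the corepressor also known as KAP1, was the member with the smallest spread in poly(PR) mice. Its controls were at 134.7, 131.7, 119.1 and 136.4 CPM, and the 7 poly(PR) libraries ranged from 138.6 to 144.4 CPM with a median of 140.1 CPM. All 7 poly(PR) libraries therefore lay above all 4 controls. Trim28 was the 1 member of 10 whose groups did not overlap, and 519 of the 19156 genes tested (2.71%) did not overlap in this cohort, 1.39% of all genes with the treated group higher. The mean difference was nonetheless small, a log2 fold change of 0.11 (SE 0.06, interval -0.01 to 0.23), and it did not pass (edgeR, adjusted p = 0.374). For poly(GR) the controls were at 114.8, 120.9, 135.8 and 123.4 CPM and the treated libraries at 141.3, 138.8, 136.3 and 129.2 CPM. Of the treated libraries 3 lay above all controls and the male one below the highest control, which was also male. The log2 fold change was 0.15 (SE 0.06, interval 0.02 to 0.28, edgeR, adjusted p = 0.381).

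Atrx, a remodeller encoded on the X chromosome, had the highest coefficient of variation of the 10 genes in the poly(PR) cohort's controls, 29.3%. The controls of the poly(PR) cohort held 2 libraries at 255.8 and 262.3 CPM and 2 at 155.9 and 152.6 CPM, and poly(PR) libraries ranged from 146.6 to 218.3 CPM with a median of 177.6 CPM. No treated library reached the upper pair, but the lower pair lay among the lowest treated ones. Its log2 fold change of -0.26 (SE 0.16, interval -0.61 to 0.08, edgeR, adjusted p = 0.412) was the largest of the 10 in size and had the widest interval. For poly(GR) Atrx was at 222.0, 212.5, 202.9 and 220.5 CPM in GFP mice and 177.6, 178.8, 226.0 and 248.2 CPM in treated libraries (log2 fold change -0.02, SE 0.09).

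Counted together, 0 of the 10 members were called in poly(PR) mice, where 11 of 19156 genes were (0.0574%), and 0 of 10 were called in poly(GR) mice, where 32 of 18511 were (0.173%). DESeq2 also called 0 members in both cohorts. At an unadjusted p under 0.05 edgeR found 0 members in the poly(PR) cohort against 14.9% of all genes. In the poly(GR) cohort it found 1, Trim28, against 11.5% of all genes. DESeq2 found 1 in each, Cbx3 for poly(PR) (adjusted p = 0.281) against 16.1% of all genes and Trim28 for poly(GR) (adjusted p = 0.359) against 9.58%. The median log2 fold change of the members was -0.03 for poly(PR) and -0.01 for poly(GR), against 0.01 and 0.00 over all genes tested, with 5 members above 0 in each cohort, against 51.1% and 51.0% of all genes. Without the sixth poly(PR) library, a female one at 256.0 CPM of Cbx5, 3 members had an unadjusted p under 0.05 by edgeR: Cbx3 (-0.30, adjusted p = 0.0772), Atrx (-0.37, adjusted p = 0.103) and Cbx5 (-0.31, adjusted p = 0.121). In that fit 31.1% of all genes had such a p, so 3 of 10 is near the background. Without the fourth poly(GR) library, the male one, Trim28 (0.24, adjusted p = 0.114) and Cbx3 (-0.23, adjusted p = 0.177) had such a p by edgeR, as did 15.3% of all genes. With its sex term, that fit set the female treated libraries against the female controls alone, as does a fit of female libraries only. Without the first, the second or the fourth control, without the first treated library, or with the mitochondrial share as a covariate, Trim28 no longer had an unadjusted p under 0.05.

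Gene tables of the poly(GR) cohort came in 2 layouts, with 2 columns in 5 libraries and 4 columns in 3. The labels do not say whether the layouts mark separate processing. With the layout as a further covariate the log2 fold change of Trim28 was 0.15 and that of Cbx5 -0.08. In the 2-column tables alone, 3 controls and 2 treated libraries, they were 0.13 and -0.07. The 4-column tables hold 1 control and 2 treated libraries, too few for a comparison, and their values were 0.19 and -0.08.

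The poly(PR) and poly(GR) effects were set against each other in a fit over all 19 libraries. No member had a difference that passed, and 0 of 19863 genes did (0.00%). At an unadjusted p under 0.05 there were 0 members and 1066 genes (5.37%) by edgeR. For Cbx5 the poly(PR) effect minus the poly(GR) effect was -0.14 on the log2 scale (SE 0.19, interval -0.54 to 0.27, adjusted p = 0.839). The largest in size was that of Atrx, -0.25 (SE 0.22, interval -0.71 to 0.22, adjusted p = 0.787). These intervals are wide enough to hold differences as large as the effects themselves.

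Suv39h1 and Atrx are X-linked, so the sexes were compared in the same fit. No member passed in female against male mice, where 7 of 19863 genes did (0.0352%), and 1 member had an unadjusted p under 0.05, against 14.6% of all genes. That member was the autosomal Ehmt2, with a log2 difference of 0.16, female minus male (SE 0.07, edgeR, adjusted p = 0.326). Suv39h1 had 0.03 (SE 0.05) and Atrx -0.22 (SE 0.11, edgeR, adjusted p = 0.371).

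The variation that stood out lay between libraries of the same group. In the poly(PR) cohort the coefficient of variation of Cbx5 was 18.4% in controls and 18.4% in treated mice, and that of Ehmt2 14.9% and 16.9%. In the poly(GR) cohort the same genes varied by 4.68% and 4.76%, and by 4.56% and 5.60%. Cbx5 and Ehmt2 moved in opposite directions: the ratio of their CPM ran from 0.489 in the fifth poly(PR) library to 1.31 in the third control of that cohort. With cohort and sex means removed, Pearson's r of Cbx5 and Ehmt2 over the 19 libraries was -0.98. By this measure only 4 of 18202 other genes were less like Cbx5 than Ehmt2 was.

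Likewise Cbx5 had r of 0.90 with Cbx1, 0.89 with Cbx3, 0.86 with Suv39h2 and 0.85 with Atrx. The remaining 4 members lay between -0.42 (Suv39h1) and -0.52 (Trim28). The pairs of HP1 genes, Suv39h2 and Atrx among themselves ranged from 0.72 to 0.90. These values describe how the libraries varied, and all points share the library's depth and composition. They are also not unusual here: over all genes the 5th and 95th percentiles of r with Cbx5 were -0.88 and 0.92. The genes most like Cbx5 were Reps2, Dek (a chromatin protein), Gnpda2, Uhmk1 and Fbxw11, each with r of 0.99.

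**Figure D3:**
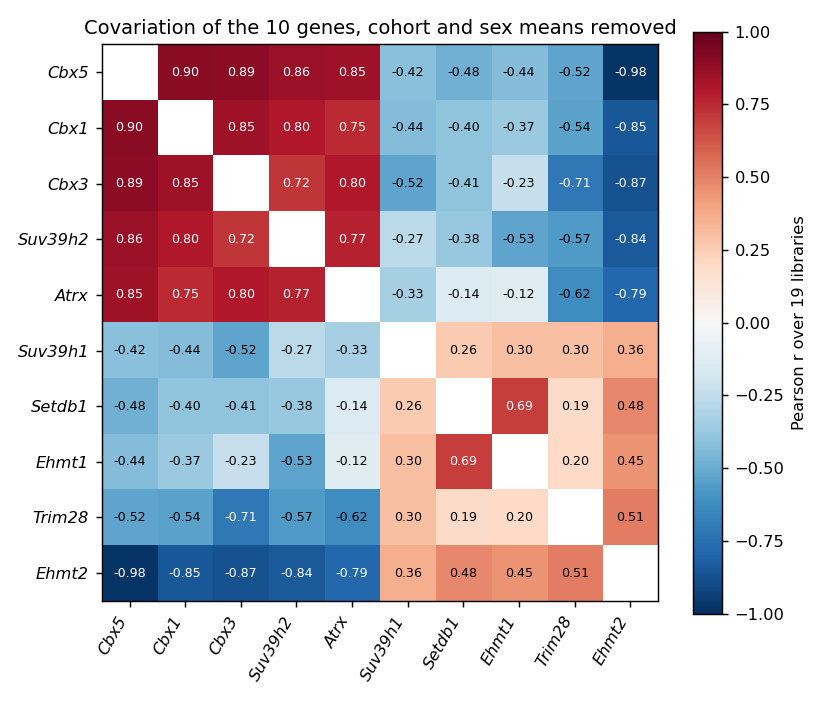
Pearson's r (colour and number) between each pair of the 10 genes (rows and columns), over 19 libraries of log2 CPM less the cohort and sex means. Cbx5, Cbx1, Cbx3, Suv39h2 and Atrx form a block with r from 0.72 to 0.90, and Ehmt2 stands against all 5, down to -0.98 with Cbx5.

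In the poly(PR) cohort these genes moved with the mitochondrial share of each library. Over its 11 libraries Cbx5 had Pearson's r of -0.911 with that share (permutation test, p = 1e-05, the smallest it can give, adjusted p = 0.0003 over 30 relations) and Spearman's rho of -0.936 (permutation p = 7e-05). Without the 2 libraries farthest from the median share r was -0.93. Ehmt2 had r of 0.914 (permutation p = 8e-05, adjusted p = 0.0012) and rho of 0.918 (permutation p = 0.00017), and r of 0.852 without those 2. Of the 10 members, 5 had an adjusted p under 0.05 for r: Cbx5, Cbx1, Cbx3 and Suv39h2 below 0 and Ehmt2 above 0. Such relations were widespread in this cohort: 33.0% of the 19156 genes tested had an r at least as far from 0 as Cbx1, the weakest of the 5. Within the 7 poly(PR) libraries alone r was -0.892 for Cbx5 (exact permutation p = 0.00575, adjusted p = 0.0345) and 0.877 for Ehmt2 (exact permutation p = 0.00774, adjusted p = 0.0387). Their rho, -0.857 and 0.821, had adjusted exact permutation p of 0.102 and 0.128. Without the 2 of these libraries farthest from their median share, r was -0.785 for Cbx5 and 0.546 for Ehmt2 (n = 5). The share of all genes with such an r in these libraries is not given here. The 4 controls are too few for a value of their own. In the 8 libraries of the poly(GR) cohort, where the share varied little, 0 members had an adjusted p under 0.05, and Cbx5 had r of 0.475 (exact permutation p = 0.219). With the log2 share as a further covariate the log2 fold change of Cbx5 in poly(PR) mice was -0.10 (SE 0.06) and that of Ehmt2 0.05 (SE 0.06).

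**Figure D4:**
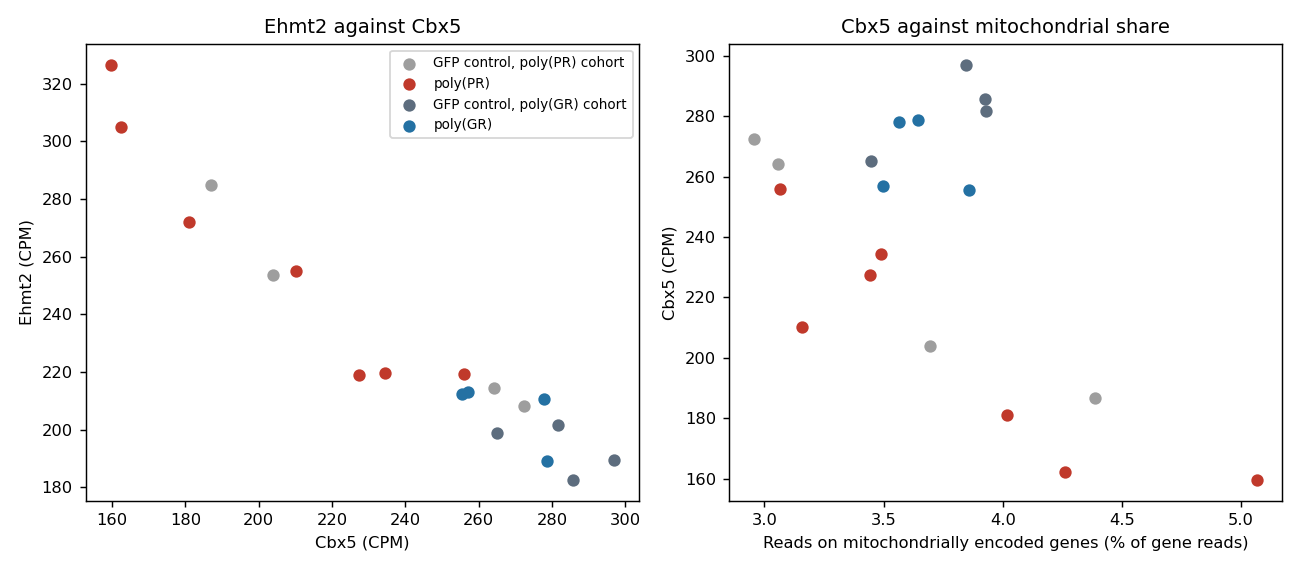
Left, CPM of Ehmt2 (vertical) against CPM of Cbx5 (horizontal), and right, CPM of Cbx5 against the percentage of gene reads on mitochondrially encoded genes, with 1 point per library coloured by group. The lowest Cbx5 value, 159.6 CPM, belongs to the poly(PR) library with the highest Ehmt2 value, 326.6 CPM, and the highest mitochondrial share, 5.07%.

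Likeness to Cbx5 also went with the base composition of the transcripts. The longest annotated transcripts of Cbx5, Cbx1, Cbx3, Suv39h2 and Atrx have GC contents of 42.6%, 44.9%, 38.7%, 43.0% and 39.5%, all below the median of 49.5%. Those of Ehmt2 and Trim28 are at 60.8% and 59.6%, and Suv39h1, Setdb1 and Ehmt1 lie between 48.3% and 51.2%. Across 18178 genes, which are not independent replicates, GC content and r with Cbx5 had Spearman's rho of -0.478. The median r with Cbx5 was 0.56 in genes under 40% GC and -0.58 in genes at 60% and over. The slope of each library's log2 CPM on GC content, taken as a covariate, left log2 fold changes in poly(PR) mice of -0.01 for Cbx5, -0.02 for Atrx, -0.02 for Ehmt2, -0.09 for Cbx3 and 0.08 for Trim28 (SE 0.04 to 0.06), none called. This covariate was chosen after seeing the data and is measured on the same libraries, so it can also take up part of a treatment effect.

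**Figure D5:**
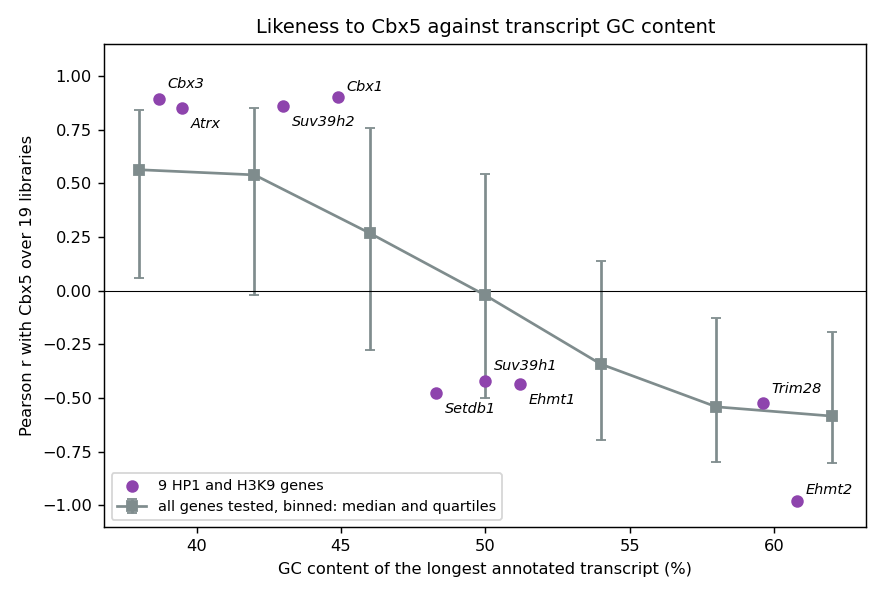
Pearson's r with Cbx5 over 19 libraries (vertical) against the GC content of the longest annotated transcript (horizontal) for the 9 other members (purple) and, in grey, the median and quartiles of all genes tested in 7 bins of GC, with the open-ended bins drawn at the edges. The median goes from 0.56 to -0.58, and Ehmt2, at 60.8% GC, lies below its bin's quartiles.

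Genes that work with the members were counted by role. A list of 14 genes held cofactors of the members, HUSH complex genes and further genes of the methyltransferase families (Setdb2, Prdm2, Mecom and Prdm16). Of these 14, 0 were called in either cohort by edgeR. In poly(PR) mice 1 had an unadjusted p under 0.05, Prdm2, which encodes the zinc finger protein RIZ, at 73.2 ± 6.29 against 89.6 ± 6.76 CPM (log2 fold change -0.27, SE 0.07, edgeR, adjusted p = 0.172). It had an adjusted p of 0.0224 by DESeq2, for which the share of all genes called is not given here. In poly(GR) mice Mphosph8, the HUSH subunit that binds methylated H3K9, was at 45.0 ± 1.90 against 50.2 ± 2.12 CPM (-0.15, SE 0.06, edgeR, adjusted p = 0.337), and Resf1, a partner of Setdb1, at 12.8 ± 0.452 against 14.6 ± 0.912 CPM (-0.19, SE 0.08, edgeR, adjusted p = 0.351). For both genes the 4 treated libraries lay below the 4 controls. In this cohort the groups did not overlap, in either direction, for 870 of 18511 genes (4.70%). Morc2a, on the same list, lay higher in poly(PR) mice without overlap (0.14, SE 0.07, edgeR, adjusted p = 0.364), where 2.71% of genes did not overlap. It had 0.11 (SE 0.05) in poly(GR) mice. Among the lists below, Chaf1a in poly(PR) mice (0.18, SE 0.10) and Mbd1 in poly(GR) mice (0.12, SE 0.05) were also higher without overlap.

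Of 14 partners of HP1, 0 were called. Those with the smallest p were Chaf1b, a chromatin assembly factor (0.76, SE 0.28, edgeR, adjusted p = 0.273), Sp100 (0.39, SE 0.17) and the lamin B receptor Lbr (-0.22, SE 0.11) in poly(PR) mice. Chaf1b was at 0.842 ± 0.198 against 0.497 ± 0.176 CPM. In poly(GR) mice they were Pogz, an HP1-binding zinc finger protein (0.17, SE 0.05, edgeR, adjusted p = 0.221), Cdca2 (-1.05, SE 0.32, at 0.260 against 0.490 CPM) and Trim24 (0.14, SE 0.06).

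KRAB zinc finger genes, whose products bring Trim28 to DNA, were tested for 8 of 10 listed, since Zfp708 and Zfp819 had at most 12 reads in a library. None was called. Zfp57, which protects imprinted loci, was at 9.03 ± 1.17 CPM in poly(GR) libraries against 7.29 ± 1.08 CPM in controls (0.40, SE 0.09, edgeR, adjusted p = 0.134), and its adjusted p was 0.0446 by DESeq2 and 0.0163 without the filter on low counts. How many of all genes DESeq2 and the unfiltered fit called is not given here. In poly(PR) mice Zfp57 had 0.19 (SE 0.13). Zfp445 (0.12, SE 0.06) and Zfp809 (-0.13, SE 0.08) in poly(GR) mice, and Zfp932 (0.09, SE 0.10) and Zfp445 (-0.07, SE 0.08) in poly(PR) mice, followed.

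Of 11 H3K9 demethylases 0 were called, and 10 had fitted values below 0 in poly(PR) mice against 2 in poly(GR) mice. Over all genes tested, 9362 of 19156 and 9065 of 18511 lay below 0. Other lists leaned the same way in poly(PR) mice: 11 of 14 cofactor and HUSH genes, 9 of 14 HP1 partners and 10 of 15 Polycomb genes lay below 0. In poly(GR) mice 7 of each did. The KRAB zinc finger genes had 4 of 8 below 0 in poly(PR) mice, and the genes of H4K20 and DNA methylation 6 of 11. The demethylases' split of 10 against 2 was not itself tested. Gene by gene, the difference of effects called none of the demethylases, nor any of the 19863 genes tested. Kdm7a (-0.45, SE 0.19, edgeR, adjusted p = 0.302), Jmjd1c (-0.29, SE 0.13) and Kdm4a (-0.10, SE 0.07) had the smallest p in poly(PR) mice, and Kdm3b (0.12), Kdm4b (0.10) and Kdm4a (0.08) in poly(GR) mice. Of 11 genes of H4K20 and DNA methylation 0 were called. Kmt5b (-0.13), Kmt5c (0.45, SE 0.24) and Kmt5a (-0.14) came first in poly(PR) mice, and Mbd1 (0.12), Kmt5a (-0.11) and Uhrf1 (-0.34, SE 0.21) in poly(GR) mice. Polycomb genes, listed for comparison because they serve another repressive mark, gave 0 of 15 called, with Cbx2 (-0.31, SE 0.16), Cbx7 (0.11) and Rnf2 (-0.19) first in poly(PR) mice and Rnf2 (-0.15), Ring1 (0.16) and Eed (-0.13) in poly(GR) mice.

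RNA of repeats that H3K9 methylation is known to silence was read from the repeat counts. Of 21 listed subfamilies of endogenous retroviruses, LINE-1 elements and satellites, 20 were found and tested for poly(PR) and 19 for poly(GR). None was called by edgeR, as was true of all 975 and 955 subfamilies tested (0.00% in each). At an unadjusted p under 0.05 there were 1 of 20 listed, lower, against 2.87% of all in poly(PR) mice, and 2 of 19, both lower, against 2.09% of all in poly(GR) mice. DESeq2 was not run on repeats. The listed subfamilies had a median log2 fold change of 0.01 and -0.001, against 0.02 and -0.02 over all tested.

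In poly(PR) mice the retroviral MuLV-int was at 261.6, 353.9, 337.6 and 301.1 CPM of gene reads in controls and from 211.7 to 316.3 CPM in treated libraries (-0.29, SE 0.11, edgeR, adjusted p = 0.969). MMETn-int had -0.20 (SE 0.10) and IAPEz-int, the intracisternal A particle, -0.31 (SE 0.16), and all overlapped between groups. In poly(GR) mice the young LINE-1 family L1Md_T was at 1184, 1046, 484.3 and 613.9 CPM in the controls and 489.8, 582.5, 522.5 and 769.2 CPM in treated libraries (-0.50, SE 0.20, edgeR, adjusted p = 1.00). The 2 high values were the 2 female controls, and the male poly(GR) library came next. L1Md_F2 had -0.40 (SE 0.17), and the major satellite GSAT_MM 0.81 (SE 0.42) on 6 to 25 reads per library. Repeat reads of all kinds per 100 gene reads were 40.4 and 32.5 in those 2 controls and 19.9 to 25.7 in the other 6 libraries of the cohort. Their part in the L1 values was not tested. Without the male poly(GR) library, which leaves only female treated mice, L1Md_T (-1.07) and L1Md_F2 (-0.84) were called, with edgeR adjusted p of 1.24e-09 and 3.53e-08. With its sex term, that fit set the female treated libraries against only the 2 female controls, those with the most repeat reads per gene read. In that fit 18 of all 957 subfamilies were called (1.88%), so the calls were not limited to the listed ones.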

How the data were processed

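The labels disagree on the RNA: per the labels' protocols a TruSeq Stranded Total kit was applied to total RNA, but the molecule field names polyA RNA. The tools listed are Trimmomatic 0.36 and STAR 2.5.2b, and mm10 and mm9 appear as genome builds with no role given, per the submitters' processing notes. The deposited gene and repeat tables hold raw read counts, which the authors did not normalize, and the gene counts keep no strand. Summary lines (unassigned reads) were dropped before scaling. In the 14 tables with such lines, 6.57% to 13.4% of reads matched no gene and 5.91% to 8.56% were ambiguous. Symbols, exon lengths and transcript GC content came from GENCODE M21 on GRCm38, with 53706 of 53801 IDs annotated.

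Groups and sex came from the labels. Replicate numbers only name libraries, and nothing pairs them. Each cohort was fitted alone with edgeR 4.0.16 (R 4.3.3; glmQLFit and glmQLFTest), using TMM factors, filterByExpr, a sex term and Benjamini-Hochberg adjustment over all genes tested, at 0.05. A gene that passed is called. The difference of effects and the sex coefficient used all 19 libraries. Repeat subfamilies were scaled by gene reads. CPM is TMM-scaled within the cohort. Standard errors were derived from the F statistic. Likeness to Cbx5 is Pearson's r of log2 CPM (prior count 2). Relations with mitochondrial share used permutation tests written with numpy 2.4.6, with ranks and adjustment from scipy 1.17.1. Alternatives included DESeq2 1.42.0. The fits were also run on simulated counts, in which each gene varied independently and sex had no effect. Because genes varied together in these libraries, that run does not show how the fits behave here.

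The members, lists and tests were chosen with earlier results of these data known. All 10 members were named whatever their values, with up to 3 genes of the smallest p per list and cohort, 3 repeat subfamilies per cohort, and the 5 genes most like Cbx5 with mean log2 CPM of at least 1. The labels describe separate mice. With 4 to 7 libraries per group, the p-values of the fits weigh a difference against the spread between these mice. Lengths of RPKM are unions of annotated exons. Of the HUSH complex genes, Tasor was matched by its older symbol.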

Additional observations from a re-analysis of the deposited data

Results flagged for a closer look

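Ehmt2 was at 189.1 CPM in the fourth poly(GR) library, the only male of its group, while the 3 female libraries lay between 210.5 and 213.2 CPM. The gap to the nearest of the others was 0.888 of the group's range, above the critical value for 4 libraries. It is 1 such result among 40 groups of values examined (10 genes in 4 groups), and chance gives about 1 in 20. The 2 male controls of that cohort, at 182.5 and 198.8 CPM, were not set apart from the female ones at 189.3 and 201.7 CPM.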

How the results depend on the processing

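No member was called in any setting, and the smallest adjusted p of a member in any was 0.0772. Except where given above, the counts below lack the share of all genes in the same fit, so they are not results about the members or lists. At an unadjusted p under 0.05 by edgeR that share was 14.9% in the main poly(PR) fit and 31.1% without the sixth poly(PR) library. Members with an unadjusted p under 0.05 in poly(PR) mice numbered 0. They numbered 1 (Cbx3) with DESeq2, with the mitochondrial share and in the fit of all 19 libraries, and 0 to 3 leaving out single libraries. In poly(GR) mice they numbered 1, but 0 with the mitochondrial share, and 0 within the 2-column tables (3 controls, 2 treated) and the 4-column tables (1 control, 2 treated), fits too small for their counts to bear on this, 2 in female libraries only, and 0 to 2 leaving out single libraries. Called genes of the wider lists numbered 0 in the main fits, which called 0.0574% of all genes for poly(PR) and 0.173% for poly(GR). They numbered 1 in poly(PR) mice with DESeq2 and with all 19 libraries (Prdm2), and 1 with the GC slope (Cbx2). Leaving out single libraries gave 0 to 1 (Prdm2 without the sixth poly(PR) library). In poly(GR) mice they numbered 1 with DESeq2 and without the filter (Zfp57). How many of all genes these other fits called is not given here. Called silenced repeats in poly(GR) mice numbered 0 to 2 leaving out single libraries.

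Of 870 alternative log2 values of members 57 changed sign, all of them uncalled, and the cause was not tested. In poly(PR) mice these were Ehmt1 with the mitochondrial share (-0.00020), in female libraries only (-0.033) and leaving out libraries (-0.029 to 0.091), and with the GC slope Suv39h2 (0.046) and Ehmt2 (-0.016). In poly(GR) mice Suv39h1 became -0.010 with the mitochondrial share, -0.017 in female libraries, -0.041 in 4-column tables and -0.018 to 0.046 leaving out libraries. Atrx became 0.013 with the mitochondrial share, 0.056 with the GC slope, 0.0029 in 2-column tables and -0.16 to 0.039 leaving out libraries. For the difference of effects Suv39h2 became -0.0010 with DESeq2. With the mitochondrial share Cbx5 became 0.039, Cbx1 0.014, Setdb1 -0.017 and Ehmt2 -0.040, and Ehmt2 became -0.0048 with the GC slope. Leaving out libraries gave -0.056 to 0.085 for Suv39h2, -0.026 to 0.053 for Setdb1, -0.10 to 0.0049 for Ehmt1 and -0.081 to 0.0013 for Trim28. For female minus male Cbx1 became 0.026 with the mitochondrial share and 0.068 with the GC slope, and Cbx5 0.063 with the GC slope. Leaving out libraries gave -0.030 to 0.019 for Cbx1, -0.019 to 0.026 for Setdb1 and -0.041 to 0.0036 for Trim28.

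Levels per length of most members moved when the longest transcript replaced the union of exons. The orders of Trim28 and Cbx5, of Cbx1 and Cbx3, and of Suv39h1 and Ehmt1 given above hold for the union only. No paired analysis was possible because replicate numbers came from accession order. Suv39h2, with 90 to 232 reads, is the member that depth limits most. The GC slope was added after seeing the data, all other settings were listed earlier.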
